A study of Mus musculus with 42 samples.

Results

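RNA-seq libraries of mouse splenic CD4 T cells held transcripts of digestive enzymes made by the exocrine pancreas and of secreted proteins made by the salivary glands. The pancreatic transcripts were higher in libraries with a conditional knockout (cKO) of Trmt61a than in wild-type (WT) libraries at 3 h and 6 h of stimulation, and the salivary transcripts were lower in cKO than in WT libraries at 0 h, 3 h and 6 h. Most of the pancreatic reads sat in 1 of the 2 cKO libraries, and most of the salivary reads in 1 of the 2 WT libraries. The genes were chosen by name: 20 pancreatic genes, 15 salivary genes, and 6 further genes whose symbols begin with Klk1b, 41 in all. Of these, 40 were listed in at least 1 of the 4 deposited tables, which list 2828 different genes, and Ctrc was in none. The names were picked because of the values these tables hold for cKO against WT, so their differences between the genotypes are described here and not tested anew.

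The series holds 42 samples, of which 18 are RNA-seq. The 16 used here are Trmt61a cKO and wild type CD4 T cells, with 2 libraries for each genotype at 0, 3, 6 and 48 h; the 18 h libraries were not used here. The cells came from spleens of C57BL/6 mice aged 8 weeks, were purified as naive CD4 T cells with an isolation kit, and, for the times after 0 h, received anti-CD3 bound to the plate (5 µg/ml) together with anti-CD28 (2 µg/ml). The labels give no Cre driver for the RNA-seq cKO and do not say whether the 2 libraries of a group came from separate animals, so the p-values measure the spread between these libraries, which may be technical. Trmt61a encodes the catalytic subunit of the enzyme that methylates adenosine 58 of tRNA.

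Acinar cells of the pancreas make digestive enzymes, largely as inactive zymogens, and store them in granules; a few enzyme mRNAs make up much of the RNA of such a cell. Salivary glands secrete amylase, mucin-like and proline-rich proteins, and in mice the convoluted ducts of the submandibular gland make large amounts of kallikreins and growth factors, more so in males.

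The stretches just before the start of transcription are shown because the members move as blocks of related genes. RefSeq (GRCm38.p6) promoters were matched by symbol for 16 of the 19 listed pancreatic genes and for 21 of the 21 listed salivary genes. Each line gives the 70 bases before the RefSeq start, 5′ to 3′ on the strand of the gene, with a TATA-like box in capitals. Of the pancreatic genes, Ctrb1 and Cela2a carry CATAAA there and the other 3 shown carry TATAAA.
Ctrb1 (chr8:111691011-111691080, minus strand): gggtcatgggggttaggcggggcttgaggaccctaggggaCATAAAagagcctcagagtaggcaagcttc
Pnlip (chr19:58670295-58670364, plus strand): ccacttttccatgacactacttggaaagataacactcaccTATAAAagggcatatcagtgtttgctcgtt
Cela2a (chr4:141826006-141826075, minus strand): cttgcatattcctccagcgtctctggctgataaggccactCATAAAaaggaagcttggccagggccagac
Prss2 (chr6:41521706-41521775, plus strand): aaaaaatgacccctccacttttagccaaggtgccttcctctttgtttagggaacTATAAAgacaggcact
Try4 (chr6:41302202-41302271, plus strand): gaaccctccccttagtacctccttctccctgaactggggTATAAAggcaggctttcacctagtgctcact
In the 50 bases before the start, on the gene's strand, TATAAA stood in 6 of 16 pancreatic promoters (37.5%), against 2.63% of all 32851 promoters. CATAAA stood in 4 of 16 pancreatic promoters (25%), against 1.33% of all promoters. Over 250 upstream bases and both strands, CACCTG, an E-box, was found in 10 of 16 pancreatic promoters (62.5%), against 17.2% of all promoters. It was also found in 5 of 13 Klk1b promoters (38.5%) and in 0 of 10 promoters of the other salivary genes. For the other motifs searched in the same way, CAGCTG was found in 3 of 16 (18.8%, against 13.0% of all), TTTCCC in 7 of 16 (43.8%, against 21.9%) and AGAACA in 4 of 16 (25%, against 16.1%). These matches describe the letters only.

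The salivary genes are shown for the box that the Klk1b genes share and for a pair of near-identical promoters, those of Dcpp2 and Dcpp3.
Klk1b26 (chr7:44012608-44012677, plus strand): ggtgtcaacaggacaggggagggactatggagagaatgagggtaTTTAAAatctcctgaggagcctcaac
Klk1b9 (chr7:43975991-43976060, plus strand): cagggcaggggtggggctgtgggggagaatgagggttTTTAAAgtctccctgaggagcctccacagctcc
Klk1b4 (chr7:44207363-44207432, plus strand): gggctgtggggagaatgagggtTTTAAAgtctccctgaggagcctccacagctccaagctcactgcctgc
Klk1b16 (chr7:44137220-44137289, plus strand): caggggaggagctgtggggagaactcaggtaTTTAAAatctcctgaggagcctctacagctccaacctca
Crisp3 (chr17:40242289-40242358, minus strand): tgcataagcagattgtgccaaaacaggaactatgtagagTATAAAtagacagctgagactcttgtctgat
Dcpp2 (chr17:23898652-23898721, plus strand): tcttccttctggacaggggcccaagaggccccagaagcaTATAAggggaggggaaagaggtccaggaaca
Dcpp3 (chr17:23917388-23917457, plus strand): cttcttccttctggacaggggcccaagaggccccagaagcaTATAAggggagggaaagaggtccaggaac
TTTAAA stood in the 50 bases before the start of 12 of the 13 Klk1b promoters (92.3%), against 2.37% of all promoters. TATAA, which is part of TATAAA, stood there in 5 of 10 promoters of the other salivary genes (50%), against 4.93% of all promoters. Those 10 promoters belong to 8 genes. The full TATAAA stood in 1 of the 10 (10%), against 2.63% of all promoters. The 300-base promoters of the Klk1b genes were alike, with a median identity of 86.0% over 78 pairs (81.8% to 97.7%), and those of Dcpp2 and Dcpp3 were 97.7% identical. The likeness of the transcripts themselves was not computed for any of these families. Reads of related genes may have been split or shared, so single Klk1b, Dcpp, trypsinogen and amylase genes are uncertain. Dcpp2 also overlaps Dcpp1 on the same strand.

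The values are gene read counts that the authors divided by 1 scaling factor per library, called scaled read counts below, and 1 read was worth 0.863 to 1.19 of them. A table lists a gene when the authors' unadjusted p is under 0.05, and a gene is called here when the adjusted p in the same table is under 0.05. A gene that is not listed at a time has no value here at that time. The tables were scaled separately, so levels at different times are set side by side and not tested. Trmt61a itself had 22.6 and 22.9 scaled read counts in cKO libraries at 0 h, against 363 and 216 in WT libraries, and in the authors' deposited tables it was called lower in cKO at all 4 times. In bulk RNA, fewer cells of a type and less RNA per cell cannot be told apart.

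Of the 20 pancreatic genes, 19 were listed at 3 h, all 19 higher in cKO, and 17 of them were called in the authors' deposited table, where 1.14% of the 15399 genes tested were called higher. Because the members were chosen on this contrast, nothing is read from the gap between those shares. Summed over the 19 genes, the scaled read counts were 1575 (cKO library 1) and 10443 (cKO library 2), against 80.3 (WT library 1) and 191 (WT library 2); pairs of values below keep that order. Both cKO libraries lay above both WT libraries, and cKO library 2 held 6.63 times as much as cKO library 1. The sum was 0.540% of all listed scaled read counts in cKO library 2.

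Among the proteases, Ctrb1, a chymotrypsinogen, had 253 and 1773 scaled read counts in cKO libraries, against 2.90 and 2.99 in WT libraries at 3 h. Its cKO mean was 344 times the WT mean, and it had the highest level per kilobase of the pancreatic genes (a mean of 579 scaled read counts per kb over the 4 libraries). Cela2a, a pancreatic elastase, had 136 and 1005 in cKO libraries, against 0 and 4.98 in WT libraries. Cela1, an elastase that other tissues also express, differed least: it had 168 and 937 in cKO libraries, against 37.7 and 115 in WT libraries, a mean 7.26 times as high, and it was not called. Prss2, an anionic trypsinogen, had 96.9 and 543 in cKO libraries, against 4.83 and 7.97 in WT libraries. Cpb1, a carboxypeptidase, had 68.5 and 598 in cKO libraries, against 0 and 0.996 in WT libraries. For each of these 5 genes the 2 cKO libraries lay above both WT libraries, with cKO library 2 the highest.

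Among the enzymes for fat and starch, Pnlip, pancreatic lipase, had 113 and 1123 scaled read counts in cKO libraries at 3 h, against 0 and 0.996 in WT libraries. Cel, the bile salt-activated lipase, had 77.3 and 627 in cKO libraries, against 1.93 and 6.97 in WT libraries. Amy2a1, a pancreatic amylase, had 104 and 727 in cKO libraries and no read in either WT library, which makes the cKO mean at least 141-fold higher when WT is set to 3 reads per library. The WT libraries held 1 read or none of Pnlip, and no fold is given for it.

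The remaining 11 listed pancreatic genes at 3 h (Try4, Cpa1, Ctrl, Cela3b, Pnliprp1, Try5, Clps, Reg2, Zg16, Reg1 and Pnliprp2) had their cKO libraries above both WT libraries as well. That held for all 19 genes, while among all 1091 genes listed at 3 h it held for 51.1%. In each of the 19 genes cKO library 2 was above cKO library 1. Pnliprp2, a lipase-related protein, was the other gene not called, with 2.94 and 93.6 in cKO libraries, against 0.967 and 0 in WT libraries.

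In the authors' deposited table the median log2 fold change of the 19 genes at 3 h was 7.70, beside 0.31 over all listed genes. In that authors' deposited table Ctrb1 had the lowest adjusted p of the pancreatic genes, 5.8e-07, with a log2 fold change of 8.43; a log2 fold change against a group at or near 0 depends on how the test treats 0. Refits of the listed genes gave other counts. Over both organs 26 of 35 listed members were called by the authors at 3 h (1.64% of all genes tested). DESeq2 on the recovered whole reads called 25, and edgeR and limma called 0. Over all 1091 listed genes DESeq2 called 137, and edgeR and limma called 0 there too. With the deposited scaling edgeR gave an unadjusted p under 0.05 for 35 of the 35 members and for 660 of the 1091 listed genes. With all libraries DESeq2 called 14 pancreatic and 11 salivary genes, and 16 and 15 with a mean dispersion fit. Without cKO library 2 the log2 ratio of the pancreatic sums, cKO mean over WT mean, was 3.53 instead of 5.46. For the salivary sums it was -4.59 instead of -7.27 without WT library 1.

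**Figure D1:**
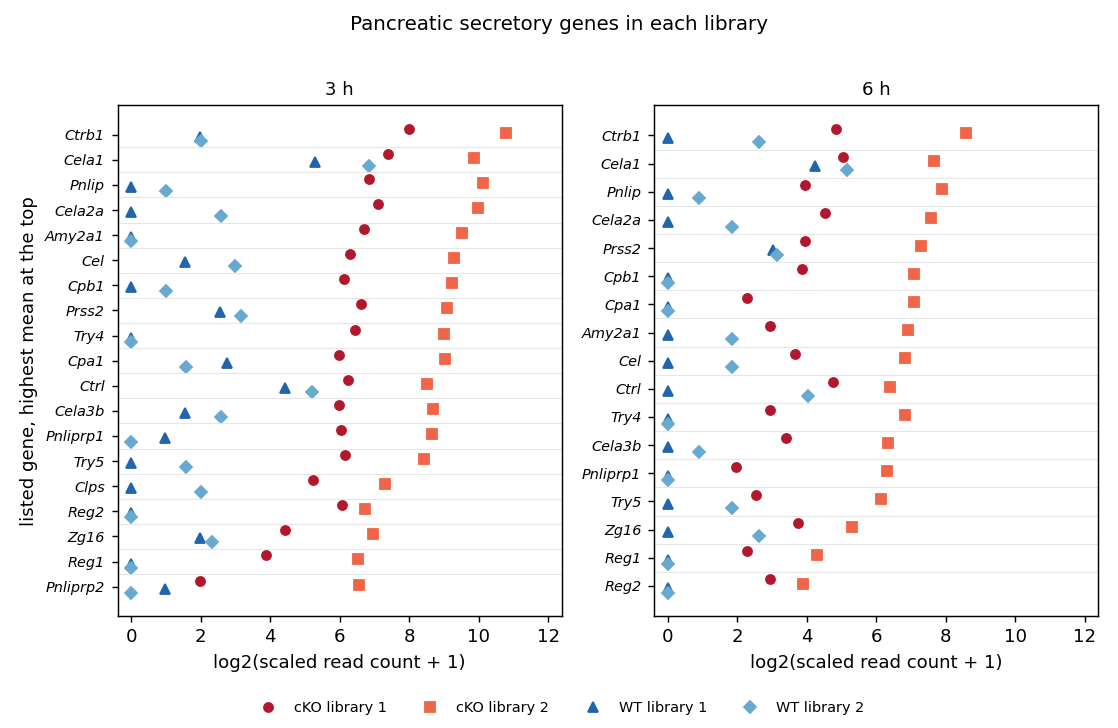
Scaled read counts, as log2(value + 1), of each listed pancreatic gene in the 2 cKO and 2 WT libraries at 3 h and 6 h, with genes ordered by their mean over the 4 libraries. The squares of cKO library 2 lie furthest right in all 19 genes at 3 h and all 17 at 6 h.

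At 6 h, 17 pancreatic genes were listed, all higher in cKO, and 4 were called in the authors' deposited table (Cpb1, Cela2a, Pnlip and Try4), where 0.355% of 16602 genes were called higher. The sums were 219 and 2168 scaled read counts in cKO libraries, against 24.97 and 80.3 in WT libraries. Cpb1 had 13.4 and 136 in cKO libraries and 0 in both WT libraries. Pnlip had 14.4 and 236 in cKO libraries, against 0 and 0.863 in WT libraries. Cela2a had 22.1 and 189 in cKO libraries, against 0 and 2.59 in WT libraries. In these genes cKO library 2 again held most of the reads.

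Of the other pancreatic genes with a high mean at 6 h, Ctrb1 had 27.8 and 386 scaled read counts in cKO libraries, against 0 and 5.18 in WT libraries, and was not called. Prss2 had 14.4 and 156 in cKO libraries, against 7.14 and 7.77 in WT libraries. Cpa1, a carboxypeptidase, had 3.84 and 134 in cKO libraries and 0 in both WT libraries. Cela1 was the 1 gene whose genotypes overlapped, with 31.7 and 203 in cKO libraries, against 17.8 and 34.5 in WT libraries. Amy2a1 had 6.72 and 120 in cKO libraries, against 0 and 2.59 in WT libraries. In 16 of the 17 genes both cKO libraries lay above both WT libraries, as they did for 45.7% of the 740 genes listed at 6 h. Reg1 and Reg2, secreted lectin-like proteins of acinar cells, had an adjusted p of 1 in the authors' deposited table and appear to have been set aside from the adjustment.

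Over both organs the authors called 7 of 32 listed members at 6 h (0.5% of all genes tested). DESeq2 called 9, edgeR with TMM scaling 4, and edgeR with the deposited scaling and limma without a replicate block 0. Over all 740 listed genes the same fits called 29, 25, 0 and 0. With all libraries DESeq2 called 3 pancreatic and 6 salivary genes, and 0 and 2 with a mean dispersion fit. Without cKO library 2 the log2 ratio of the pancreatic sums was 2.04 instead of 4.48. For the salivary sums it was -2.80 instead of -5.49 without WT library 1.

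The pancreatic genes kept much the same proportions in cKO library 2 at both times. Over the 17 genes listed at 3 h and 6 h, log2(value + 1) at 6 h followed that at 3 h with a Pearson correlation of 0.973 and a Spearman correlation of 0.939, and the 6 h value was a median 0.210 of the 3 h value (0.131 for Reg2 to 0.312 for Zg16). In cKO library 1 the same correlation was 0.564, with values of 2.88 to 31.7 scaled read counts at 6 h. Between cKO libraries 1 and 2 at 3 h the Pearson correlation was 0.851 over 19 genes, and cKO library 2 was a median 6.53 times as high, between 1.60 times for Reg2 and 31.9 times for Pnliprp2. These genes share a library and its depth, so the correlations are descriptions.

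By role, the elastases made up 23.3% of the pancreatic sum in cKO library 1 and 22.5% in cKO library 2 at 3 h, and the chymotrypsinogens 20.8% and 20.4%. The lipases with colipase made up 18.7% and 23.0%, and the trypsinogens 16.0% and 13.3%. The Reg genes with Zg16, a protein of zymogen granules, were the group with the smallest gap between the cKO libraries, 3.19-fold. That small gap came from Reg2, at 1.60-fold, while Reg1 was at 6.60-fold and Zg16 at 5.99-fold. The carboxypeptidases had the widest gap, 8.57-fold.

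At 0 h Reg2 was the 1 pancreatic gene listed. It had 200 and 383 scaled read counts in cKO libraries, against 14 and 0 in WT libraries, and it was not called. Its genotypes did not overlap, nor did those of 67.4% of the genes listed at 0 h, with cKO the higher. Reg3a, Reg3b and Reg3d, related genes outside the chosen names, were listed beside it, all higher in cKO and none called. Reg3b had 36.3 and 73.1 in cKO libraries, against 0.933 and 0 in WT libraries. At 0 h no other pancreatic gene of either list was listed, and at 48 h none was.

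**Figure D2:**
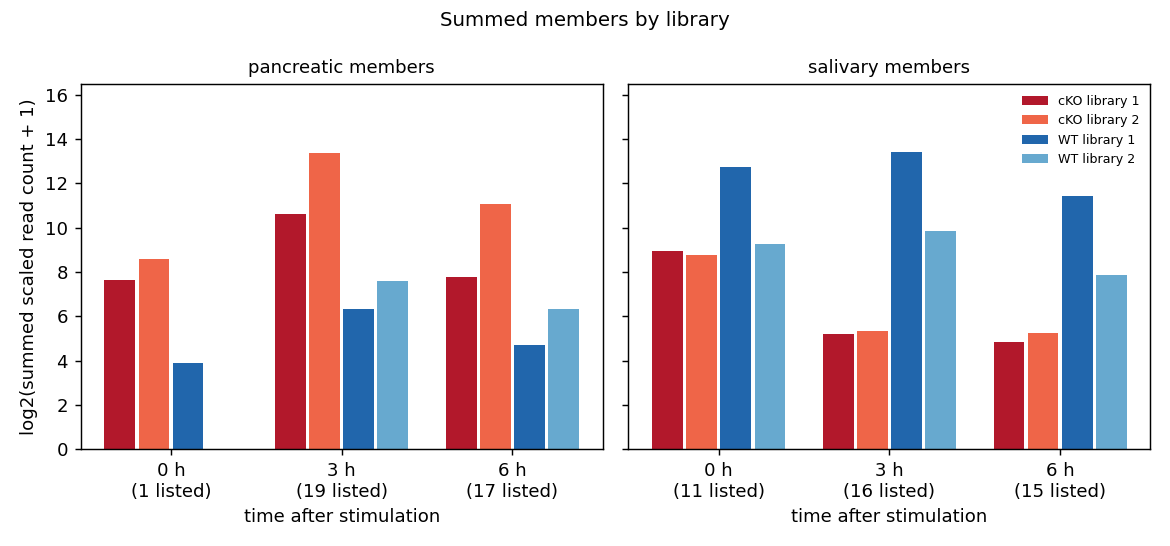
Sums of the listed pancreatic (left) and salivary (right) genes in each library at 0, 3 and 6 h, as log2(summed scaled read count + 1); the number of genes summed differs by time. cKO library 2 is highest for the pancreatic genes at every time, and WT library 1 for the salivary genes.

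The salivary genes lay the other way round. At 3 h, 16 were listed, all lower in cKO, and 9 were called in the authors' deposited table, where 0.5% of the genes were called lower. The sums were 35.2 and 40.0 scaled read counts in cKO libraries, against 10995 and 928 in WT libraries. WT library 1 held 11.8 times as much as WT library 2, and WT library 2 still held 23.2 times as much as the higher cKO library.

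Klk1b26, a submandibular kallikrein, was the highest salivary gene at 3 h, with no read in either cKO library, against 2786 and 269 scaled read counts in WT libraries. The WT mean was at least 502-fold higher with cKO set to 3 reads per library. The salivary sum of WT library 1 was 25.3% Klk1b26, and that of WT library 2 was 29.0%. Klk1b9, the kallikrein called epidermal growth factor-binding protein C, had 0 and 1.05 in cKO libraries, against 971 and 76.7 in WT libraries. Klk1b4 had 1.96 and 0 in cKO libraries, against 786 and 66.7 in WT libraries. Both belong to the kallikrein family of the submandibular gland, and their reads lay almost wholly in WT. Klk1b22 had no read in cKO libraries, against 622 and 38.8 in WT libraries, and was not called. Klk1b16 had no read in cKO libraries, against 598 and 41.8 in WT libraries. Klk1b11 had 0 and 1.05 in cKO libraries, against 469 and 42.8 in WT libraries. In all 6 of these kallikreins WT library 1 was the highest library and the genotypes did not overlap.

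All 13 Klk1b genes were listed at 3 h. They lie on chromosome 7 within 270 kb (chr7:43950664-44220703, mm10), and no other gene listed at any time lies inside that stretch. Their summed scaled read counts were 2.94 and 4.21 in cKO libraries, which is 3 and 4 reads, against 7976 and 693 in WT libraries. Each of the 13 genes had reads in both WT libraries.

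**Figure D3:**
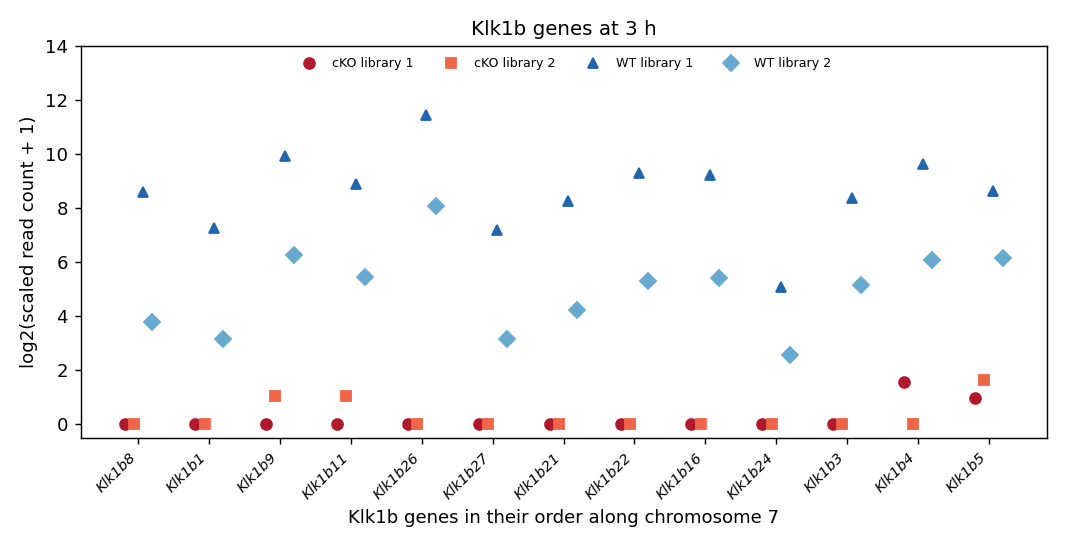
Scaled read counts of the 13 Klk1b genes at 3 h, as log2(value + 1), in their order along chromosome 7, for the 2 cKO and 2 WT libraries. Every gene has WT library 1 above WT library 2 and both above the cKO libraries, which hold 3 and 4 reads in all.

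Of the other salivary genes at 3 h, Egf, epidermal growth factor, was the 1 with a clear level in every library: 32.3 and 33.6 scaled read counts in cKO libraries, against 1632 and 126 in WT libraries, a mean 26.7 times as high in WT, and it was not called. Crisp3, a cysteine-rich secretory protein, had 0 and 2.10 in cKO libraries, against 1343 and 97.6 in WT libraries. Per kilobase, Egf stood at 40.5 scaled read counts per kb over the 4 libraries, below Klk1b26 at 551 and Crisp3 at 255. In all 16 genes the cKO libraries lay below both WT libraries, as they did for 46.7% of the genes listed at 3 h.

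At 6 h, 15 salivary genes were listed, all lower in cKO, and 3 were called in the authors' deposited table (Klk1b26, Klk1b11 and Klk1b5), where 0.145% of genes were called lower. The sums were 27.8 and 36.4 scaled read counts in cKO libraries, against 2738 and 230 in WT libraries. Klk1b26 had 0.960 and 0 in cKO libraries, against 596 and 59.6 in WT libraries. Crisp3 had no read in cKO libraries, against 460 and 20.7 in WT libraries. Egf had 24.95 and 36.4 in cKO libraries, against 290 and 57.0 in WT libraries. The order of the libraries was that of 3 h, with WT library 1 at the top.

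The other kallikreins high at 6 h had no read in either cKO library. Klk1b4 had 304 and 20.7 scaled read counts in WT libraries, and Klk1b9 had 208 and 12.1. Klk1b16 had 162 and 10.4 in WT libraries, Klk1b3 137 and 8.63, and Klk1b22 131 and 6.04. Klk1b27 was the 1 salivary gene at 6 h whose genotypes overlapped, with reads in WT library 1 alone. The other 14 did not overlap, where 47.7% of all listed genes had both cKO libraries below both WT libraries.

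Over the 15 salivary genes listed at both times, the 6 h sum in WT library 1 was 0.250 of its 3 h sum, and that of WT library 2 was 0.249 of its own. The pancreatic sum over its 17 shared genes fell to 0.213 of the 3 h sum in cKO library 2 and to 0.142 in cKO library 1. The tables were scaled separately, so these ratios also hold any difference in scaling between the tables. Single salivary genes spread more than their sum: in WT library 1, Prol1, a proline-rich protein of salivary and tear glands, was 2.14 times as high at 6 h as at 3 h, and Klk1b8 0.0956 times.

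**Figure D4:**
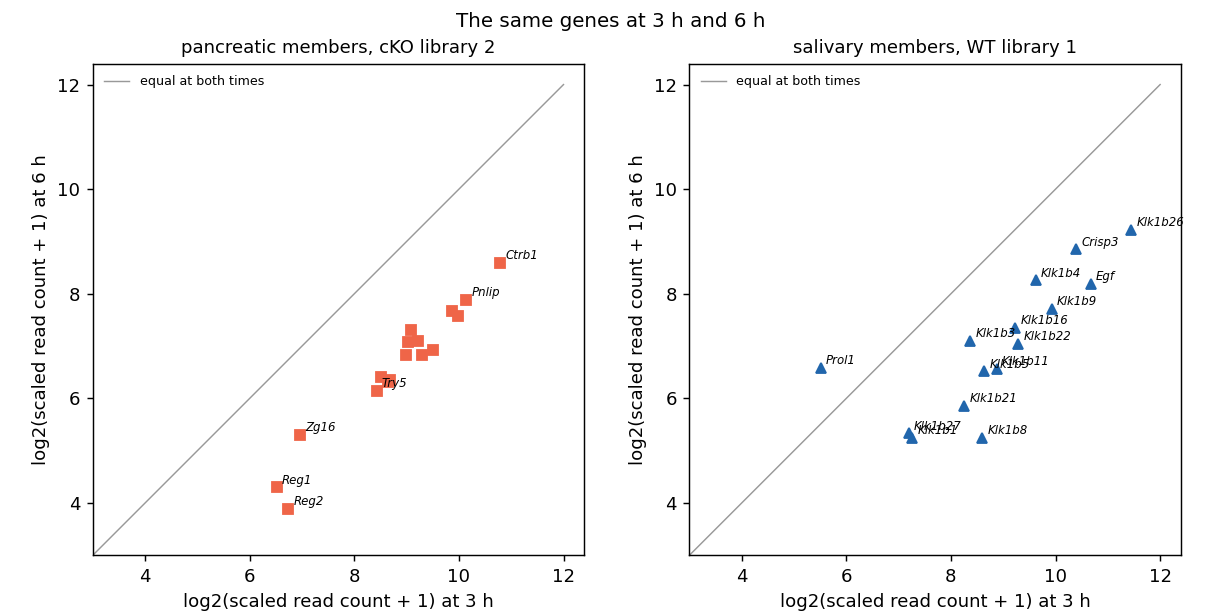
log2(scaled read count + 1) at 3 h (horizontal) and 6 h (vertical) for the 17 pancreatic genes in cKO library 2 and the 15 salivary genes in WT library 1; the line marks equal values, and some pancreatic points are left without names. The pancreatic points lie along 1 line below it (Pearson correlation 0.973), and the salivary points scatter more (0.773), with Prol1 above the line.

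At 0 h, before stimulation, 11 salivary genes were listed, all lower in cKO, and 2 were called in the authors' deposited table, Dcpp2 and Klk1b26, where 0.0122% of 24502 genes were called. Their sums were 498 and 439 scaled read counts in cKO libraries, against 6794 and 618 in WT libraries. Dcpp2, a demilune cell and parotid protein, had 521 in WT library 1 and no read in the other 3 libraries. Klk1b26 likewise had 388 in WT library 1 and no read in the others. Both calls thus rest on WT library 1 alone. With all libraries DESeq2 called the same 2 salivary genes, and without WT library 1 neither has a read left, so no p exists for them. Without that library the log2 ratio of the sums was -0.40 instead of -2.98.

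Among the 11 salivary genes listed at 0 h, Amy1, Smr3a, Dcpp3 and Dcpp2 had the highest means. Amy1, the salivary amylase, had 367 and 343 scaled read counts in cKO libraries, against 3804 and 475 in WT libraries. Smr3a, a submaxillary gland androgen-regulated protein, had 60.9 and 32.0 in cKO libraries, against 786 and 71.0 in WT libraries. Dcpp3 had 0.982 and 2.29 in cKO libraries, against 599 and 0 in WT libraries. Dcpp3 thus had its reads almost wholly in WT library 1. Egf had 63.8 and 58.3 in cKO libraries, against 330 and 62.7 in WT libraries. Crisp3 had 3.93 and 0 in cKO libraries, against 251 and 2.77 in WT libraries, and Klk1b5 had 0.982 and 1.14 in cKO libraries, against 46.7 and 0 in WT libraries. Amy1, Smr3a and Egf had reads in all 4 libraries. Amy1, Smr3a, Dcpp2 and Dcpp3 were not listed at 3 h or 6 h, so their levels at those times are not known. Klk1b26, Egf and Crisp3, the highest listed salivary genes of 3 h, were listed at 0 h as well. In 4 of the 11 genes both cKO libraries lay below both WT libraries, where 18.0% of the 384 genes listed at 0 h did.

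**Figure D5:**
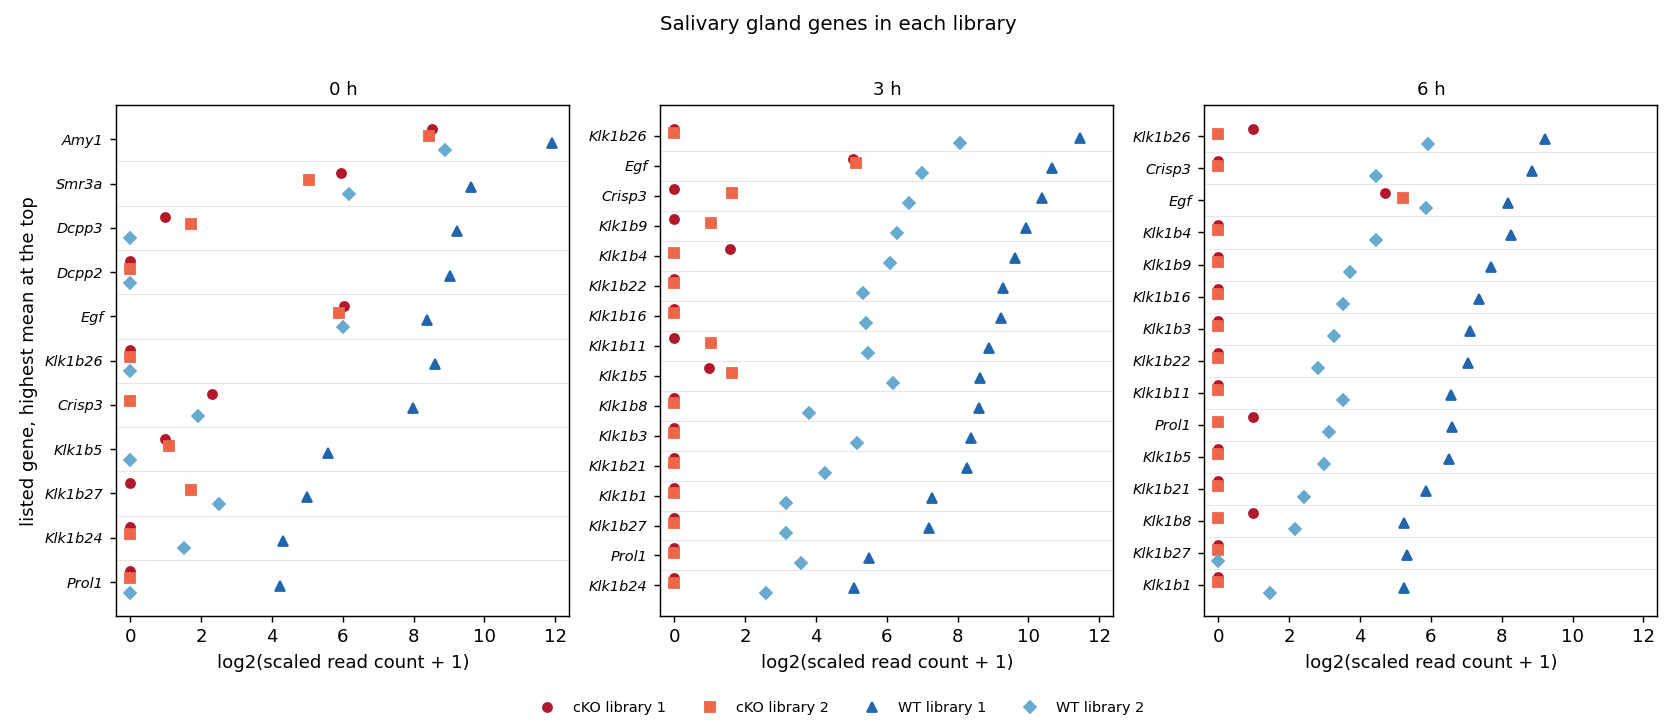
Scaled read counts, as log2(value + 1), of each listed salivary gene in the 2 cKO and 2 WT libraries at 0, 3 and 6 h, ordered by mean. WT library 1 lies furthest right for every gene at all 3 times, and at 0 h WT library 2 is not above both cKO libraries for 7 of the 11 genes.

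At 48 h the 1 member listed was Bpifa2, a secreted protein of the parotid gland. It had 15.9 and 55.2 scaled read counts in cKO libraries, against 4.36 and 7.39 in WT libraries, and it was higher in cKO, unlike the salivary genes of the earlier times. It had an adjusted p of 1 in the authors' deposited table, beside the authors' unadjusted p of 0.0032. Like Reg1 and Reg2 at 6 h, it appears to have been set aside from the adjustment. Of the 9940 genes adjusted at 48 h, 2.37% were called.

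Genes outside the chosen names were ranked by how closely they followed each organ's sum, so the likeness of those named comes from that ranking. Among genes listed at both 3 h and 6 h, 313 could be compared with the sums over 8 libraries. The genes most like the pancreatic sum were 2210010C04Rik (Pearson correlation 0.977), Rnase1, a pancreatic ribonuclease (0.971), Amy2b (0.949), Gm4779 (0.929) and Amy2a3 (0.926). Rnase1 had 23.5 and 150 scaled read counts in cKO libraries at 3 h, against 0 and 0.996 in WT libraries. Genes most like the salivary sum included Mucl2 (0.956), Ncmap (0.941), Rcan3 (0.930) and Pcdh8 (0.928). Mucl2 had no read in cKO libraries at 3 h, against 212 and 47.8 in WT libraries. Rcan3 differed from Mucl2 in level, with 568 and 885 in cKO libraries, against 2710 and 1376 in WT libraries. Pcdh8 had no read in cKO libraries at 3 h, against 6.77 and 6.97 in WT libraries, so WT library 1 was not the higher.

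Of 42 further acinar genes, 13 were listed at 3 h, 12 of them higher in cKO and 7 called higher, where 1.14% of all genes tested were. Dmbt1, a secreted scavenger-receptor protein, had 44.0 and 159 scaled read counts in cKO libraries, against 3.87 and 8.96 in WT libraries. Erp27, an endoplasmic reticulum protein, was the 1 lower gene, with 15.7 and 31.5 in cKO libraries, against 75.4 and 80.7 in WT libraries. At 6 h, 6 of the 42 were listed and 1 was called higher, where 0.355% of all genes were. Transcription factors of acinar cells on that list, such as Ptf1a, Rbpjl and Bhlha15, were not listed at any time.

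Of 43 further salivary genes, 5 were listed at 0 h, 3 at 3 h and 2 at 6 h, all lower in cKO. Tesc and Gstp3, the 2 listed at 48 h, were lower in cKO by less, and both had many reads in every library. Tesc had 595 and 713 scaled read counts in cKO libraries, against 783 and 870 in WT libraries. Gstp3 had 535 and 575 in cKO libraries, against 756 and 710 in WT libraries. Tfcp2l1, a transcription factor of salivary ducts, was the 1 called, where 0.5% of all genes tested at 3 h were called lower. It had 2.94 and 7.36 scaled read counts in cKO libraries at 3 h, against 112 and 54.8 in WT libraries. Few islet and duct genes were listed: at 3 h 1 of 14 islet genes and 2 of 19 epithelial and duct genes were listed, all 3 lower in cKO. Krt7, a duct keratin, had 1.96 and 4.21 in cKO libraries at 3 h, against 24.2 and 20.9 in WT libraries. At 6 h the islet genes Slc2a2 and Ins2 and the epithelial gene Clu were listed, all lower in cKO and none called. Slc2a2 had no read in cKO libraries at 6 h, against 14.3 and 14.7 in WT libraries. Ins2 had none either, against 2.38 and 19.9. Cldn10, a claudin, was higher in cKO at 48 h. Of 18 genes of stroma, endothelium and fat, Col1a2 was lower in cKO at 3 h and 6 h, and Kdr was higher at 6 h. Neither was called. Col1a2 had 36.2 and 36.8 in cKO libraries at 3 h, against 83.2 and 165 in WT libraries. Kdr had 150 and 34.4 in cKO libraries at 6 h, against 11.9 and 8.63 in WT libraries.

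Of 20 CD4 T cell genes, 4 were listed at 3 h, 3 lower and 1 higher in cKO, and none was called in the authors' deposited table. Lck, a kinase bound to CD4, had 9261 and 11165 scaled read counts in cKO libraries, against 14045 and 12876 in WT libraries. Lat, an adaptor of the T cell receptor, had 8934 and 10196 in cKO libraries, against 15808 and 12539 in WT libraries. Il7r, the interleukin-7 receptor, had 2297 and 3485 in cKO libraries, against 5605 and 3403 in WT libraries. Cd2, an adhesion receptor, lay the other way, with 7081 and 6973 in cKO libraries, against 5415 and 4350 in WT libraries. Cd2 and Ccr7 were the 2 higher genes of the 3 listed at 6 h, and at 48 h 6 were listed, of which Cd5 (higher in cKO) and Themis (lower) were called.

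Genes of other blood cells moved in both directions. Of 13 erythroid and platelet genes, Alas2 at 0 h and Car1 at 48 h were higher in cKO. Ppbp at 6 h was lower, and none of them was called. Of 22 B and plasma cell genes, 3 were listed at 3 h. Prdm1 was the higher of them in cKO, Iglc1 and Mzb1 were lower, and Mzb1 was called. Mzb1, a chaperone of antibody-secreting cells, had 23.5 and 41.0 scaled read counts in cKO libraries, against 87.0 and 159 in WT libraries. At 6 h, 3 were listed, all lower in cKO, and Igkc and Ighg3 were called. Igkc, the kappa light chain, had 874 and 1167 in cKO libraries, against 2684 and 3239 in WT libraries, with WT library 2 and not WT library 1 the higher.

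All 5 of the 12 CD8 and NK cell genes listed at 3 h were higher in cKO, and Eomes, a transcription factor of cytotoxic cells, was called, with 354 and 360 scaled read counts in cKO libraries, against 174 and 115 in WT libraries. At 48 h Eomes was called lower in cKO. Of 20 myeloid genes, 4 were listed at 0 h. C1qa, C1qb and C1qc, the chains of complement C1q, were lower in cKO with WT library 1 the highest, and S100a9, a neutrophil protein, was higher, with 132 and 18.3 in cKO libraries, against 13.1 and 3.69 in WT libraries. The 1 myeloid gene listed at 3 h, Cst3, and the 1 at 6 h, H2-Eb1, were higher in cKO, and no myeloid gene was called. Of 6 sex-linked genes, Xist was the 1 listed, at 48 h alone, and it was not called. It had 37784 and 34773 in cKO libraries, against 28972 and 32544 in WT libraries. A part of sex in the salivary genes was not tested. The part of other cells or tissue in the differences of the secretory genes was not tested, and the library that is highest and the genotype cannot be told apart with 2 libraries a group.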

How the data were processed

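RNA-seq was deposited as 1 table per time point. Per the submitters' processing notes reads were handled with mm10 and, in no stated order or assay, Bowtie2 2.4.1, featureCounts 1.5.0-p3, HISAT2 2.0.5 and Trim Galore 0.6.6. The deposited per-library values are a signal, read counts that the authors divided by 1 factor per library; in all 16 columns 100% of values above 0 were whole multiples of 1 step (tolerance 0.01). The deposited tables also give the authors' log2 fold change (cKO over WT), p-value and adjusted p-value, from a test not given in the sources used here. Every listed gene has an unadjusted p below 0.05, so library depth is unknown: listed reads per library ranged from 423873 to 4482346. The number of genes behind each adjustment was recovered from the p-values.

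Members were found by name, and sums, ratios and correlations were computed on the scaled read counts (pandas 2.3.3). Folds against a group at 0 used 3 reads per library, which covers counting error only. limma 3.58.1 on log2(value + 1), and edgeR 4.0.16 (quasi-likelihood) and DESeq2 1.42.0 on the recovered reads, were alternatives with Benjamini-Hochberg adjustment over the authors' number of genes; their estimates of spread come from selected genes only. They were also run on simulated data with less spread between libraries than these genes have, which does not show how well they work here. An exact permutation test of 2 against 2 libraries cannot go below 0.333, so none is given. Named genes were Trmt61a, at each time the 8 genes per organ with the highest mean, those called at 0 h or 48 h, up to 4 genes of each other list, and the 5 genes most like each organ's sum (1 of them is not reported here); a few others were named after their values were seen. The members and all gene lists were chosen with earlier results of these data known. The other assays of the series were not used.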

Additional observations from a re-analysis of the deposited data

How the results depend on the processing

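The counts of members called (both organs; 2, 26, 7 and 0 at 0, 3, 6 and 48 h by the authors' adjusted p under 0.05) depended on the test. At 0 h the count was 0 at a threshold of 0.01 and with limma at either pseudocount, 3 with limma at a mean of at least 10 (Reg2, Dcpp2 and Klk1b26), 5 with edgeR at the deposited scaling, 0 with TMM and 2 with DESeq2. Without each library in turn, DESeq2 called 0 to 6 and limma 0 to 0 there. Over all listed genes the 0 h counts were 5 with limma at a mean of at least 10, 6 with edgeR at the deposited scaling and 3 with DESeq2. With limma, the unadjusted p was under 0.05 for 3 of 12, 31 of 35, 25 of 32 and 1 of 1 listed members, in order of time. Over all listed genes it was under 0.05 for 83 of 384, 567 of 1091, 286 of 740 and 874 of 1195. At 3 h limma (pseudocount 1 or 10, or a mean of at least 10) and edgeR (deposited or TMM scaling) called 0. At 6 h the count was 13 at a threshold of 0.1, 0 with those limma settings, 0 with edgeR at the deposited scaling and 4 with TMM. DESeq2 with its default fit called 25 at 3 h and 9 at 6 h, and without each library in turn 10 to 27 at 3 h and 0 to 5 at 6 h. A leave-one-out fit assumes that the lone library varies like the others. DESeq2 with a mean dispersion fit had been run before the default fit was put in its place, and both were seen; it called 31 at 3 h and 2 at 6 h, and without each library 18 to 28 and 0 to 9. That fit and limma without each library were chosen after seeing the data. At 48 h every fit called 0.

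The replicate numbers are shared by both genotypes. Over all listed genes the correlation of same-numbered deviations was 0.04, -0.09, 0.03 and 0.13 at 0, 3, 6 and 48 h. The pancreatic sums at 3 h and 6 h were higher in library 2 of both genotypes, in WT with 80.3 and 191 at 3 h and 24.97 and 80.3 at 6 h. The salivary sums at those 2 times were higher in WT library 1 and in cKO library 2. Whether same-numbered libraries share more than a number was not tested. With the number as a replicate block, limma called 3, 0, 21 and 0 members at 0, 3, 6 and 48 h. Over all listed genes it called 5, 0, 48 and 1.

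The log2 ratio of the summed genes kept its sign under every alternative run. Without each library in turn it ranged, for the pancreatic genes, from 4.29 to 8.19 at 0 h, 3.53 to 6.26 at 3 h and 2.04 to 5.52 at 6 h, and for the salivary genes from -3.86 to -0.40 at 0 h, -8.15 to -4.59 at 3 h, -6.37 to -2.80 at 6 h and 1.30 to 3.03 at 48 h. Rescaling to the other listed genes, leaving out the highest member and a pseudocount of 10 moved it by less than the spread between libraries. Where a count or ratio moved, the cause was not tested, beyond the fewer libraries of a leave-one-out fit.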
